A study of Mus musculus with 8 samples.

Results

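Prox1, Gata3 and Gata2 are 3 of the 21000 mouse protein-coding genes that have a curated RefSeq transcript, and open chromatin around them was followed through lens fiber differentiation. Each locus was taken as the RefSeq gene body on GRCm38, the assembly called mm10 in the files, plus 50 kb on either side, and every called ATAC-seq peak that overlapped it was counted. The loci held 290 peaks, of which 96 were called in E14.5 epithelium, 107 in E14.5 fiber, 34 in P0.5 epithelium and 53 in the P0.5 fiber list. Peaks of the 4 lists lying within 10 bp of each other were merged into 138 regions, 66 at Prox1, 33 at Gata3 and 39 at Gata2, of 185271 merged regions in the genome.

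Prox1 is a homeodomain-type transcription factor related to the fly protein prospero. In the lens it is needed for fiber cells to leave the cell cycle and elongate, and it acts on crystallin and fibroblast growth factor receptor genes. Gata3 is a zinc finger transcription factor that binds DNA at GATA sequences and is known in the lens for cell cycle exit of differentiating fibers, in other tissues for T cell and inner ear development. Gata2 belongs to the same family and is best known from blood stem cells and blood vessel endothelium. In ATAC-seq the transposase Tn5 inserts adaptors into accessible DNA, so that fragments stack up at active promoters and at distal regulatory elements.

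The lenses came from CD1 mice, an outbred stock with no engineered allele and no treatment, and were micro-dissected into epithelium, the dividing front layer, and fiber cells, the elongated cells of the lens body. Embryos (E14.5) and newborns (P0.5) gave 4 groups with 2 samples in each, 8 samples in all. The peak lists were called on the pooled samples of a group, so no value below has a spread between replicates, and no difference between groups was tested. The list of E14.5 epithelium held 100003 peaks, that of E14.5 fiber 123743, that of P0.5 epithelium 58592 and that of P0.5 fiber 62995, and they covered 38.3, 61.3, 20.3 and 18.5 Mb.

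The height of a peak was given as fold enrichment over background at the summit. In each list every fold enrichment was a whole multiple of one value, so the number of stacked fragments at the summit could be read back. This number set the precision. The median peak rested on 14 stacked fragments in E14.5 epithelium, 15 in E14.5 fiber, 13 in P0.5 epithelium and 8 in the P0.5 fiber list, and the weakest on 7, 8, 7 and 6. Because depth and background differed between lists, peaks were compared across lists by their percent rank, the rank as a percentage of the list, where a low value is a strong peak and tied peaks share the better rank.

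The dissection was checked on marker genes by the best peak within 2 kb of a start site. All 6 fiber markers (Crybb1, Cryaa, Mip, Bfsp1, Bfsp2 and Lim2, coding for crystallins, a membrane channel, filament and membrane proteins) had a promoter peak in every list. Their median percent rank was 1.5 in E14.5 fiber against 9.04 in E14.5 epithelium, and 3.82 in the P0.5 fiber list against 19.3 in P0.5 epithelium. All 4 epithelium markers (Foxe3, Pax6, Cdh1 and Tfap2a) also had one in every list, with medians of 5.6 in E14.5 epithelium, 7.29 in E14.5 fiber, 15.8 in P0.5 epithelium and 11.7 in the P0.5 fiber list, so these genes did not set the tissues apart. Of 8 endothelial markers, 7 had one in E14.5 epithelium, 6 in E14.5 fiber, 5 in P0.5 epithelium and 3 in the P0.5 fiber list, and Tie1 and Emcn had none outside E14.5 epithelium. Of the 6 blood and macrophage markers, Ptprc, Cx3cr1, Tyrobp and Gata1 had none in any list, whereas Klf1 had one in every list (percent ranks 9.59, 8.68, 15.1 and 15.7) and Spi1 in all but P0.5 epithelium (21.7, 10.7 and 34.7). Of the 4 mesenchyme markers 3, 3, 3 and 4 had a promoter peak in the same order of lists, and of the 5 retina and pigment cell markers 4, 4, 3 and 2. In bulk samples fewer open cells and less signal per cell cannot be told apart.

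All 3 genes had a promoter peak in all 4 lists. Over all protein-coding genes 70.3% had one in E14.5 epithelium, 71.2% in E14.5 fiber, 67.0% in P0.5 epithelium and 64.6% in the P0.5 fiber list, so presence alone did not set the 3 genes apart. They differed in strength. The best promoter peak of Gata3 stood at a percent rank of 0.788 in E14.5 epithelium, 1.26 in E14.5 fiber, 3.28 in P0.5 epithelium and 1.5 in the P0.5 fiber list, above the promoters of 95.7%, 91.5%, 89.9% and 94.7% of genes. That of Prox1 stood at 9.17, 10.1, 19.6 and 21.4, above 60.0%, 52.2%, 54.3% and 48.6% of genes. That of Gata2 stood at 14.8, 13.3, 27.9 and 10.3, above 49.4%, 47.4%, 46.2% and 67.3% of genes. With equal numbers of the strongest peaks in each list the percent ranks were 1.34, 2.65, 3.28 and 1.61 for Gata3, 15.7, 21.3, 19.6 and 23.0 for Prox1 and 25.3, 28.1, 27.9 and 11.1 for Gata2. Differences in percent rank between the ages, and between the tissues at E14.5, thus depend on the lengths of the lists. At E14.5 the Gata2 promoter peak was better ranked in fiber in the full lists and in epithelium with equal numbers. Genes without a promoter peak count as ranked below in these shares. Among the genes with a promoter peak in the list, Gata3 stood above 93.9%, 88.0%, 84.9% and 91.9%, Prox1 above 43.1%, 32.8%, 31.7% and 20.4%, and Gata2 above 28.0%, 26.1%, 19.6% and 49.4%. Gata3 thus had a strong promoter peak in every list, and those of Prox1 and Gata2 ranked below the middle of the genes with one. The Gata3 peak also lies within 2 kb of the start of the noncoding gene 4930412O13Rik, so by position it could belong to either gene.

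**Figure D1:**
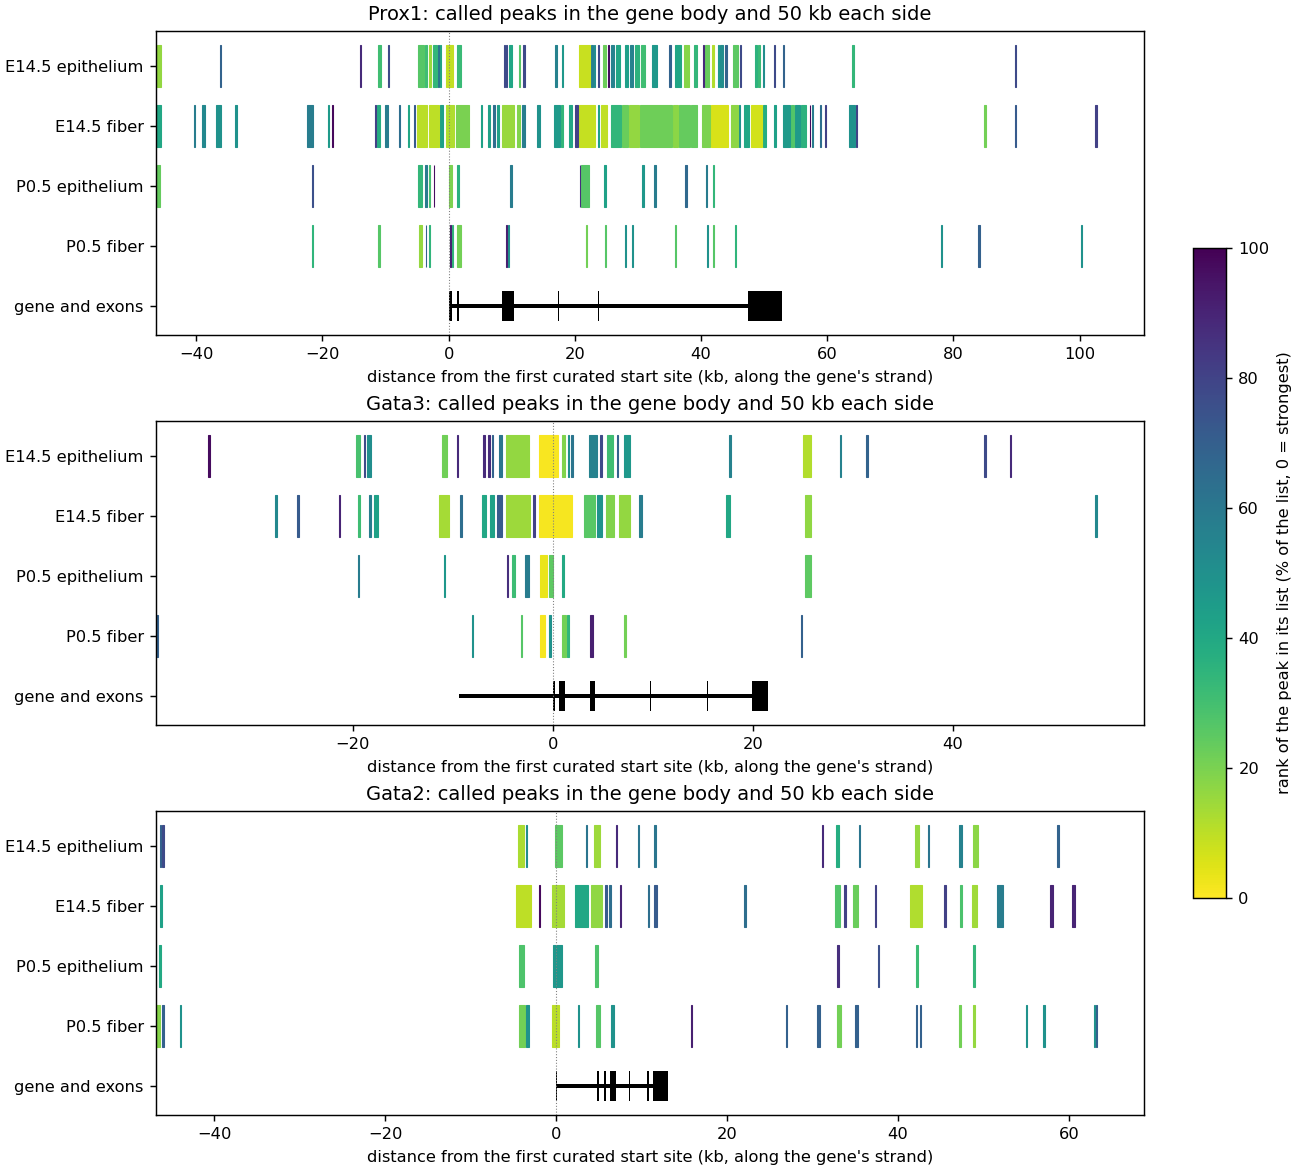
Called peaks at Prox1, Gata3 and Gata2, to scale, by distance from the first curated start site along the strand of the gene (kb). Each row is one pooled list, the colour gives the percent rank of a peak within its list (yellow is strong), and black boxes are curated exons. Peaks of E14.5 fiber fill most of the Prox1 gene body, and the strongest Gata3 peak of each list lies just upstream of the start, with summits within 37 bases of each other.

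Prox1 lies on chr1:190118035-190170827, minus strand, and has 2 curated start sites, the first at position 190170827. The long noncoding gene Prox1os starts inside the first Prox1 exon on the other strand and runs through the upstream flank, so upstream regions lie in its gene body too. The bases just before the Prox1 start, chr1:190170828-190171077, are shown because they adjoin the start. Peaks of both E14.5 lists covered them, that of P0.5 epithelium ended 3 bases into them, and those of P0.5 fiber stopped inside the gene. No base is in capitals, since none of the motifs searched (listed further on) was found in it.
Prox1 promoter: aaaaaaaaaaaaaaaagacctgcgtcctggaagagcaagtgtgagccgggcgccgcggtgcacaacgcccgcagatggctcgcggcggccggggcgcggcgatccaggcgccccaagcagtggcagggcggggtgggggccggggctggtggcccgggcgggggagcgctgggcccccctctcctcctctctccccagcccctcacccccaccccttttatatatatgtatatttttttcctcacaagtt

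At E14.5 peaks covered a large part of the Prox1 gene body. Peaks covered 32.6% of its 52793 bases in E14.5 epithelium and 65.5% in the E14.5 fiber list, against 7.76% in P0.5 epithelium and 4.94% in the P0.5 fiber list. There were 4634 other protein-coding genes at least as long, and their median cover was 1.46%, 2.27%, 0.88% and 0.689%. Of these, 2 genes (Ccdc85c and Crim1) were covered more in E14.5 epithelium, and 3 (Ccdc85c, Crim1 and Ptpru) in the E14.5 fiber list. At P0.5, 13 were covered more in epithelium and 117 in fiber. The 50 kb flanks of Prox1 together were covered less than the body in each list, by 5.57%, 15.5%, 1.95% and 1.76%.

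The cover of the whole Prox1 window came to 14.9% in E14.5 epithelium, 32.8% in E14.5 fiber, 3.96% in P0.5 epithelium and 2.86% in the P0.5 fiber list, above 97.1%, 99.5%, 86.8% and 75.5% of genes. When each list was reduced to its 58592 strongest peaks the values were 12.9%, 27.3%, 3.96% and 2.86%, with the same order. Peak widths were left as called, with medians of 226, 298, 209 and 185 bases. Wider window cover in E14.5 fiber was seen at other lens genes, at 74.0% for Crybb1, 45.9% for Sox1, 43.4% for Fgfr3, 41.4% for Cryaa and 33.1% for Bfsp2. The widest peak, 5053 bases at chr1:190135409-190140461, was called in E14.5 fiber inside the intron before the last exon, where E14.5 epithelium had 3 shorter peaks and P0.5 epithelium 2.

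**Figure D2:**
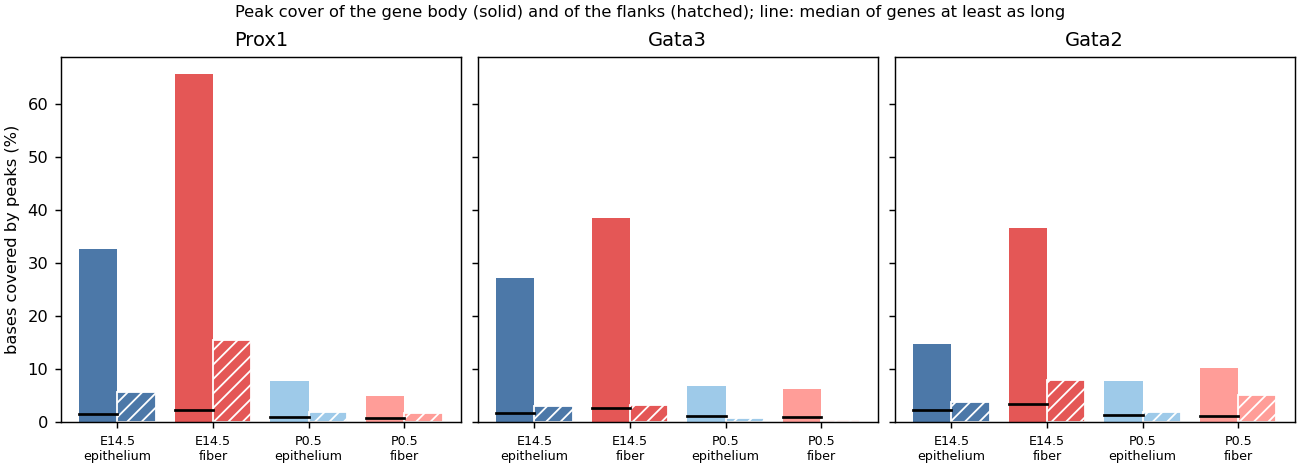
Percentage of bases covered by peaks in the gene body (solid bars) and in the 50 kb flanks together (hatched bars), in each pooled list. Black lines give the median body cover of protein-coding genes at least as long, and the Prox1 body reaches 65.5% in E14.5 fiber against a median of 2.27%.

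Of the 66 Prox1 regions, 4 overlapped 2 kb around an own start site, 30 others lay in the gene body, 16 in Prox1os, 5 in the predicted noncoding gene Gm30446 and 11 between genes. Of the 30 gene body regions, 22 held a peak in E14.5 epithelium, 29 in E14.5 fiber, 7 in P0.5 epithelium and 9 in the P0.5 fiber list, where 49.4%, 66.1%, 28.0% and 30.0% of all merged regions held one. The P0.5 counts are near those shares. Of the 11 regions between genes, all downstream, 10 were called in E14.5 fiber and 2 in E14.5 epithelium. Peaks of all 4 lists met in 10 regions (15.2%), against 10.9% of all merged regions.

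The start region, chr1:190169964-190171262, had its best summit 0.089 kb inside the gene, in the untranslated first exon. It held 69 stacked fragments in E14.5 epithelium (percent rank 9.17), 60 in E14.5 fiber (11.9), 27 in P0.5 epithelium (19.6) and 9 in the P0.5 fiber list (34.7). The region at the second start site, chr1:190167555-190169707, held 20, 35, 16 and 11 fragments, fewer than the start region except in P0.5 fiber. A region 2.18 kb upstream, chr1:190172383-190174009, held 41, 72, 19 and 9 fragments, and one 4.12 kb upstream, chr1:190174198-190175857, held 24, 70, 17 and 13. In E14.5 epithelium both upstream regions stood below the start region, with ratios of 0.594 (95% Wilson interval 0.405 to 0.872) and 0.348 (0.219 to 0.551). In E14.5 fiber the ratios were 1.2 (0.853 to 1.69) and 1.17 (0.828 to 1.64), with intervals that include 1. The best promoter peak of Prox1 was that of the start region in both epithelium lists, that 2.18 kb upstream in E14.5 fiber, and that at the second start in P0.5 fiber. The short region 1.25 kb upstream, chr1:190171782-190172187, was called at E14.5 alone, with 16 and 17 fragments.

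The strongest Prox1 peak of E14.5 fiber lay 42.0 kb downstream of the start, in the intron before the last exon, at chr1:190126527-190129192. Its summits in the 4 lists fell within 10 bases of each other. The 300 bases around the summit, chr1:190128727-190129026, are shown on the strand of the gene, beside those of the intronic region at 21.8 kb, chr1:190148842-190149141, which was the strongest Prox1 region of E14.5 epithelium. Capitals mark a Maf half-site in the first and a Sox motif in the second.
Prox1 42.0 kb: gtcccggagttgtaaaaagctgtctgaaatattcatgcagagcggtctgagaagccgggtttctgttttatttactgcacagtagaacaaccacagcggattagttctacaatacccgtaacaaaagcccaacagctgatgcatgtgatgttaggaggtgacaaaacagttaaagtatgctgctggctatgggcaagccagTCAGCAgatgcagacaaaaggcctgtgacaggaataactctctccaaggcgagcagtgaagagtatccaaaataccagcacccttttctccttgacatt
Prox1 21.8 kb: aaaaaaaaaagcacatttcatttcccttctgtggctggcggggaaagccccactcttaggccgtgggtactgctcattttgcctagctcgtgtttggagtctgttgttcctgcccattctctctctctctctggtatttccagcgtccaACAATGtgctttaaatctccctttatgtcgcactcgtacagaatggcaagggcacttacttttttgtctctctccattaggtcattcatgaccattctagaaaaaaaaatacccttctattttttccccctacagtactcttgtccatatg

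The region at 42.0 kb held 55 fragments in E14.5 epithelium (percent rank 11.5), 127 in E14.5 fiber (6.1), 17 in P0.5 epithelium (33.9) and 10 in the P0.5 fiber list (26.4). Relative to the start region of the same list it stood at 0.797 (95% Wilson interval 0.56 to 1.13) in E14.5 epithelium and at 2.12 (1.56 to 2.87) in the E14.5 fiber list. The region was chosen as the strongest of E14.5 fiber by these same fragments, so the ratios are a description. At P0.5 the ratios were 0.63 (0.346 to 1.14) in epithelium and 1.11 (0.464 to 2.66) in fiber. All such intervals cover counting error only.

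The region at 21.8 kb, chr1:190147613-190150152, held 74 fragments in E14.5 epithelium (percent rank 8.51), 84 in E14.5 fiber (8.87), 21 in P0.5 epithelium (26.3) and 11 in the P0.5 fiber list (21.4). Its ratio to the start region was 1.07 (0.774 to 1.49) in E14.5 epithelium and 1.4 (1.01 to 1.95) in the E14.5 fiber list. Another intronic region at 24.8 kb, chr1:190145735-190146720, held 28, 75, 14 and 10 fragments. Its ratio was 0.406 (0.262 to 0.627) in E14.5 epithelium and 1.25 (0.892 to 1.75) in the E14.5 fiber list. The region at 9.98 kb in a coding exon stood at 0.232 (0.135 to 0.397) and 0.75 (0.511 to 1.1). All ratios of a list share the start region as denominator, with 69 and 60 fragments in the E14.5 lists. In P0.5 fiber its summit lay 626 bases inside the gene, against 89 in E14.5 epithelium, so ratios there refer to a different position. The summits of the 2 E14.5 lists also lay apart at some regions, most at 35.9 kb (positions 190133259 and 190134958) and 2.18 kb upstream (190173845 and 190173007).

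The second strongest Prox1 peak of E14.5 fiber lay in the untranslated part of the last exon, 49.2 kb from the start, at chr1:190121175-190122943. There E14.5 epithelium had 20 fragments (percent rank 32.1) and E14.5 fiber 112 (6.87), and neither P0.5 list called a peak.

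**Figure D3:**
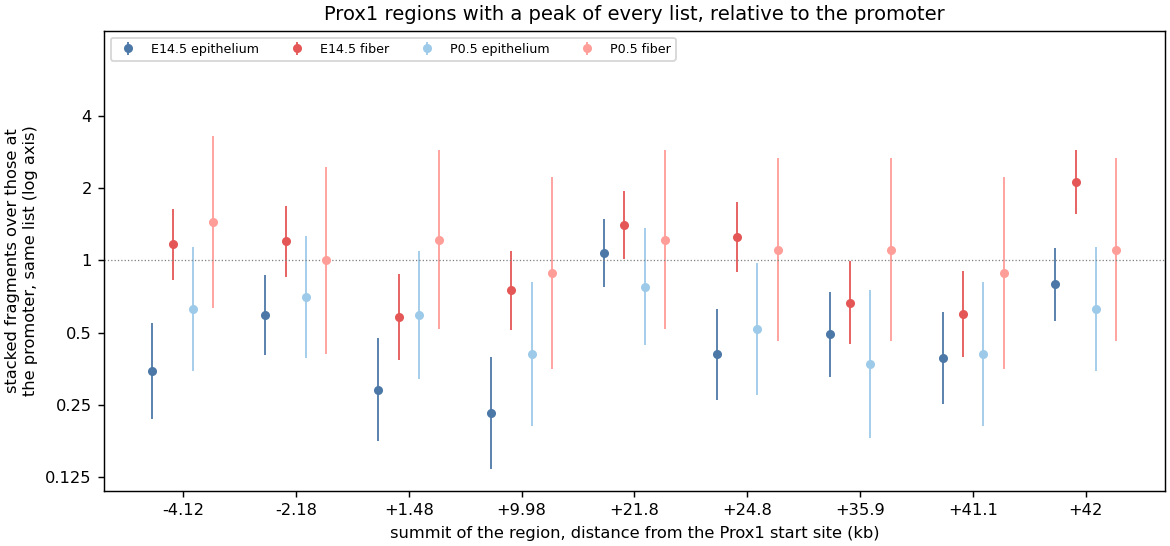
Stacked fragments at each Prox1 region with a peak of every list, divided by those at the start region of the same list, by distance from the start (kb, log axis). Bars are 95% Wilson intervals and cover counting error only. At all 9 regions the E14.5 fiber point lies above the E14.5 epithelium point, with 1 shared denominator per list and summits that can lie apart, and at 42.0 kb the values are 2.12 and 0.797.

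Gata3 lies on chr2:9857078-9887953, minus strand. Its one curated start site is at position 9878600, and predicted transcripts start further upstream. The noncoding genes 4930412O13Rik and 9230102O04Rik start on its upstream side, and Taf3, a subunit of the general transcription factor that binds the TATA box, reaches into the far flank. The bases before the start, chr2:9878601-9878850, hold a Maf half-site, in capitals. The strongest peak of the locus had its summit 1.09 kb upstream. The 300 bases around it, chr2:9879538-9879837, hold an AP-1 motif, and those around the strongest downstream region, chr2:9852885-9853184, hold 2 Tead motifs and a Sox motif between them, all in capitals.
Gata3 promoter: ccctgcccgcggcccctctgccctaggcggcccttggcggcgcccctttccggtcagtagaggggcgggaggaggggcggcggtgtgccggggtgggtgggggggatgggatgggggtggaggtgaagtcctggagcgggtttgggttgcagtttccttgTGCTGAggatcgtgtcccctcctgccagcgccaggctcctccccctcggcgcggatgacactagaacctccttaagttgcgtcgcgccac
Gata3 1.09 kb upstream: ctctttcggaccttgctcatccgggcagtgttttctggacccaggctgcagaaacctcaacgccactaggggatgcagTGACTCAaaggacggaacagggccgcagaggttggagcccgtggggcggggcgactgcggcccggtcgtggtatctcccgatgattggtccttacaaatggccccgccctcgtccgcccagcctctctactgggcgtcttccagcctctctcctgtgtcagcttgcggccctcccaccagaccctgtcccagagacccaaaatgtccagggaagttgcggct
Gata3 25.6 kb downstream: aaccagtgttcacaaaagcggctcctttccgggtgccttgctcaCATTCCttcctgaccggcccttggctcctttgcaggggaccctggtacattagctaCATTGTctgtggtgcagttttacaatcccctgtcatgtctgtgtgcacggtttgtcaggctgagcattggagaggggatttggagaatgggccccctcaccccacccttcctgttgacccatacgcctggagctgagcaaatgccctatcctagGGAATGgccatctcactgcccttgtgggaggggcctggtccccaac

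The peak 1.09 kb upstream of the Gata3 start held 231 stacked fragments in E14.5 epithelium, 292 in E14.5 fiber, 67 in P0.5 epithelium and 36 in the P0.5 fiber list. It ranked 788, 1555, 1920 and 943 in the 4 lists, and no other peak of the 3 loci ranked higher in any of them. Its summits fell within 2 bases of each other in the first 3 lists and within 37 bases in all 4. The merged region, chr2:9876594-9879950, covered the start site and the first 2 exons. It was 1 peak in E14.5 fiber and 4 in E14.5 epithelium, 3 in P0.5 epithelium and 4 in the P0.5 fiber list. The summit lies in an intron of predicted Gata3 transcripts and within 2 kb of the start sites of both Gata3 and 4930412O13Rik, so the peak cannot be given to 1 of the 2 genes by position.

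The next region upstream, chr2:9880874-9883299, with its best summit 2.57 kb from the start, held 38, 48, 18 and 10 fragments. Its ratio to the strongest peak was 0.165 (95% Wilson interval 0.117 to 0.231) in E14.5 epithelium, 0.164 (0.121 to 0.223) in E14.5 fiber, 0.269 (0.161 to 0.449) in P0.5 epithelium and 0.278 (0.14 to 0.552) in the P0.5 fiber list. The summits were spread over 1314 bases. These 2 were the only Gata3 regions with a peak of all 4 lists (6.06% of 33, against 10.9% of all merged regions).

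The region 25.6 kb downstream of the Gata3 start, beyond the end of the gene at chr2:9852761-9853571, held 54 fragments in E14.5 epithelium (percent rank 11.7), 42 in E14.5 fiber (16.6) and 22 in P0.5 epithelium (24.9), and had no peak in P0.5 fiber. A separate weak P0.5 fiber peak of 7 fragments lay at 24.9 kb, nearer to the gene. The region at the start of 9230102O04Rik, chr2:9888984-9890009, held 29, 53 and 13 fragments in the same 3 lists and again had no peak in P0.5 fiber. Inside the gene, the intronic regions at 5.61 kb (chr2:9872487-9873284) and 7.45 kb (chr2:9870862-9871993) held 21 and 14 fragments in E14.5 epithelium, against 37 and 43 in E14.5 fiber. Neither was called in P0.5 epithelium, and the one at 7.45 kb had 11 fragments in P0.5 fiber. A weak region 1.79 kb upstream was called in E14.5 fiber with 10 fragments.

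Peaks covered 27.1% of the Gata3 gene body in E14.5 epithelium, 38.5% in E14.5 fiber, 6.78% in P0.5 epithelium and 6.2% in the P0.5 fiber list. Among 7240 other protein-coding genes at least as long, 19, 47, 94 and 212 were covered more. This body takes in predicted transcripts that start upstream of the strongest peak. Over the 21523 bases of the curated transcripts alone, the cover was 17.3%, 28.9%, 0.985% and 4.53%. The whole window was covered by 8.7%, 11.5%, 2.18% and 1.67%. Of the 11 regions in the gene body away from promoters, 9 were called in each E14.5 list, 0 in P0.5 epithelium and 3 in the P0.5 fiber list, against 49.4%, 66.1%, 28.0% and 30.0% of all merged regions.

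Gata2 lies on chr6:88193891-88207032, plus strand, with 2 curated start sites, the first at position 88193891. The predicted noncoding gene Gm38708 starts inside Gata2 on the other strand and fills much of the upstream flank, and Dnajb8, a chaperone gene, lies in the downstream flank. The bases before the first start, chr6:88193641-88193890, hold none of the motifs. The 300 bases around the strongest region of the locus at E14.5, 4.07 kb upstream at chr6:88189672-88189971, hold 2 Gata motifs on opposite strands near the summit and a Sox motif. Those around the strongest downstream region, chr6:88235957-88236256, hold a Tead and a Sox motif. Capitals mark these matches.
Gata2 promoter: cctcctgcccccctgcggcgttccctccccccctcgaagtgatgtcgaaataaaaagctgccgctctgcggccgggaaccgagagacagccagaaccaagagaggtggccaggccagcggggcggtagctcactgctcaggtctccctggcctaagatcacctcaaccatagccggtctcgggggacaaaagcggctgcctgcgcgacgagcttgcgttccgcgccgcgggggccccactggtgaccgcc
Gata2 4.07 kb upstream: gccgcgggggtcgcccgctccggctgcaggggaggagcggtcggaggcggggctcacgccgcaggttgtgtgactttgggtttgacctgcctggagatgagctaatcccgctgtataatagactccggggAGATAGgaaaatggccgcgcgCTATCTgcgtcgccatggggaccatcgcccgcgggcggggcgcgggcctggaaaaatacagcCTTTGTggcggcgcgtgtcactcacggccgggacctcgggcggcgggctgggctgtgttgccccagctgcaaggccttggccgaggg
Gata2 42.2 kb downstream: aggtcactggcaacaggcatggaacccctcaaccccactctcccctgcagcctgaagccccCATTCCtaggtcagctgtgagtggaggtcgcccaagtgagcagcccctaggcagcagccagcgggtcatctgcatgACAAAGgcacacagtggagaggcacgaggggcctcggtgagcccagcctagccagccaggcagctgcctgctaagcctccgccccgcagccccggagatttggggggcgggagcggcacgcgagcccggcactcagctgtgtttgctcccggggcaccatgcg

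The region 4.07 kb upstream, chr6:88189253-88190977, held 49 fragments in E14.5 epithelium (percent rank 12.8), 73 in E14.5 fiber (9.99), 20 in P0.5 epithelium (27.9) and 11 in the P0.5 fiber list (21.4). The first start region, chr6:88193403-88194759, held 25 (25.3), 53 (13.3), 13 (47.1) and 17 (10.3). The second start region, chr6:88198004-88199224, held 42 (14.8), 42 (16.6), 20 (27.9) and 10 (26.4). In both epithelium lists the second start region was above the first, and in both fiber lists the first was above the second. The ratio of the second to the first was 1.68 (95% Wilson interval 1.03 to 2.74) in E14.5 epithelium, 0.792 (0.53 to 1.18) in E14.5 fiber, 1.54 (0.776 to 3.05) in P0.5 epithelium and 0.588 (0.274 to 1.26) in the P0.5 fiber list. The intervals cover counting error only, and the difference between lists was not tested.

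The remaining own promoter regions of Gata2 were weak. The one at 3.2 kb, chr6:88196148-88197621, held 11 fragments in E14.5 epithelium, 18 in E14.5 fiber and 8 in P0.5 fiber. Those 1.97 kb upstream and at 5.78 kb were called in E14.5 fiber alone, with 8 and 11 fragments, and that at 6.75 kb in E14.5 fiber with 12 and in P0.5 fiber with 8.

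Downstream of Gata2, regions at 42.2 kb (chr6:88235326-88236734) and 48.9 kb (chr6:88242563-88243207) were called in all 4 lists with sharply placed summits, spread over 23 and 18 bases. The first held 39, 60, 18 and 7 fragments and the second 36, 49, 17 and 13. The percent rank of the region at 42.2 kb was 69.2 in P0.5 fiber, against 11.9 to 31.6 in the other lists. Weaker regions at 33.0 kb (chr6:88226586-88227213) and 46.4 kb upstream (chr6:88147121-88147767) were also called in all 4 lists. The one at 47.3 kb (chr6:88241056-88241339) held 12, 25 and 11 fragments in E14.5 epithelium, E14.5 fiber and P0.5 fiber, and no peak in P0.5 epithelium.

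Gata2 had the highest share of regions common to all 4 lists, 7 of 39 (17.9%, against 10.9% of all merged regions), and also the highest share in 1 list only, 26 of 39 (66.7%, against 59.5%). Peaks covered 14.6% of its gene body in E14.5 epithelium, 36.6% in E14.5 fiber, 7.71% in P0.5 epithelium and 10.2% in the P0.5 fiber list. The window was covered by 4.98%, 11.2%, 2.5% and 5.7%, and the last value was above 91.3% of genes, against 71.2% to 85.2% in the other lists. The P0.5 fiber peaks behind it were weak, since 7 of 22 (31.8%) had a q value under 0.001, against 48.9% of that whole list. With the others left out, the cover was 2.88%. Gata2 is a gene of blood vessels too, and of the 8 endothelial markers 7, 6, 5 and 3 had a promoter peak in the 4 lists, fewest in P0.5 fiber. Pecam1 had one in E14.5 fiber alone. The part of such cells in the Gata2 peaks was not tested.

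**Figure D4:**
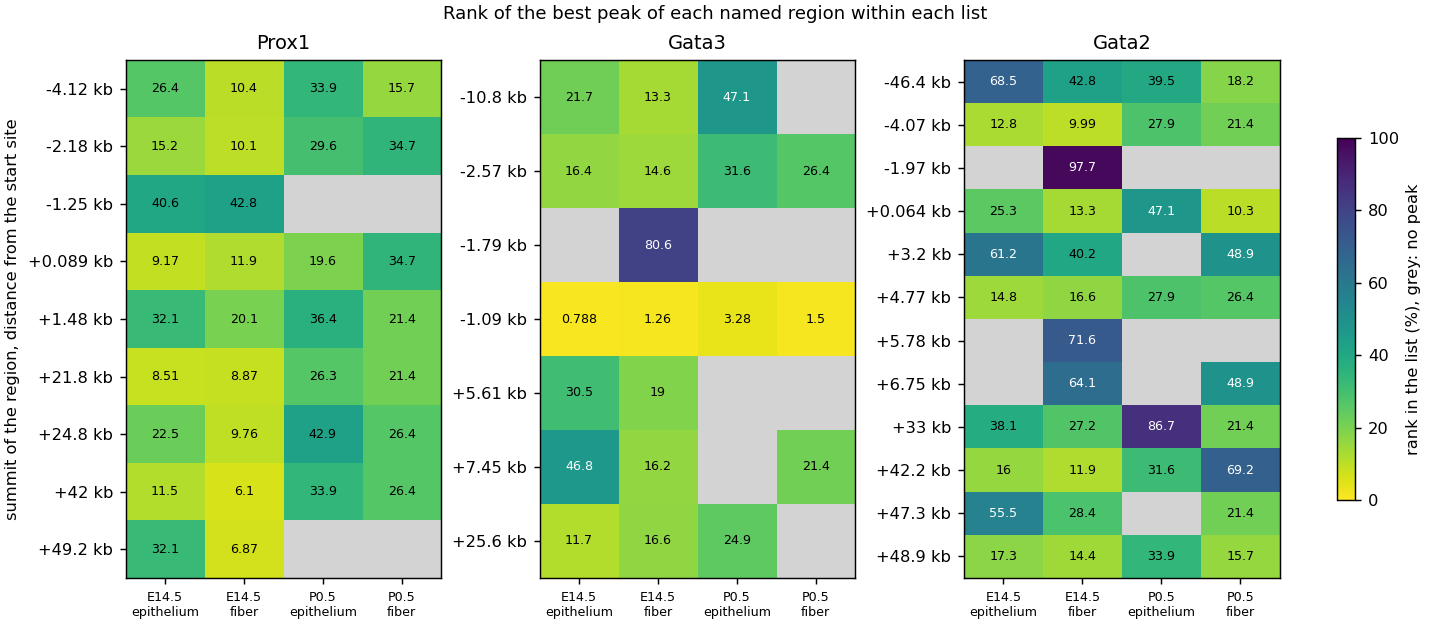
Percent rank of the best peak of each promoter region and of the 5 best-ranked other regions of each gene (6 at Gata2, where 2 tied), by list and by distance of the summit from the start site. Low values (yellow) are strong peaks, and grey marks a list without a peak. The Gata3 region 1.09 kb upstream stays between 0.788 and 3.28, and every other region lies above 6.

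The comparison of fiber with epithelium asked which regions accompany differentiation. Over the genome, a peak was held by 49.4% of merged regions in E14.5 epithelium, 66.1% in E14.5 fiber, 28.0% in P0.5 epithelium and 30.0% in the P0.5 fiber list. At E14.5, of 63 Prox1 regions in either list, 28 (44.4%) were called in fiber and not in epithelium, against 40.1% of all regions, and 2 (3.17%) in epithelium and not in fiber, against 19.7%. Fiber thus held 28 of the 30 regions called in 1 of the 2 lists, 93.3%, where all merged regions gave 67.0%. At Gata3 the split was 8 and 8 of 30 (26.7% each), and at Gata2 13 (43.3%) and 7 (23.3%) of 30. Some wide E14.5 fiber peaks overlap several shorter epithelium peaks, and the effect of this on the split was not tested. Neighbouring regions of a locus are not independent, so the shares have no interval.

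At P0.5, of 20 Prox1 regions in either list, 7 (35.0%) were in fiber and not in epithelium and 2 in epithelium and not in fiber, against 39.7% and 35.2% of all regions. At Gata3 they numbered 5 and 3 of 10. At Gata2 13 of 21 (61.9%) were in fiber and not in epithelium and 1 (4.76%) in epithelium and not in fiber, so that fiber held 92.9% of the 14, against 53.0% of all merged regions. With equal numbers of the strongest peaks Gata2 kept 12 of 13 in fiber (92.3%), against 49.9% of all merged regions. With peaks of q under 0.001, which keeps 48.9% of the P0.5 fiber list and 86.7% of P0.5 epithelium, the split at Gata2 was 2 and 2, at Prox1 2 in fiber and 4 in epithelium, and at Gata3 1 and 3, and all merged regions gave 26.5% in fiber.

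With age, more calls were lost than gained at each locus, by a small margin at Gata2 in fiber. In epithelium, 23 of 36 Prox1 regions (63.9%), 17 of 22 Gata3 regions (77.3%) and 10 of 18 Gata2 regions (55.6%) were called at E14.5 and not at P0.5, against 49.7% of all regions. The reverse was seen in 1 region at Prox1 (2.78%), 0 at Gata3 and 1 at Gata2 (5.56%), against 11.2%. In fiber, 46 of 64 Prox1 regions (71.9%), 18 of 25 Gata3 regions (72.0%) and 12 of 32 Gata2 regions (37.5%) were called at E14.5 and not at P0.5, against 62.6%. Called at P0.5 and not at E14.5 were 3 (4.69%), 3 (12.0%) and 9 (28.1%), against 17.6%. At Gata2 these counts turned with the filter. In fiber, with q under 0.001 the numbers were 0 gained and 9 lost, where 8.24% of all merged regions in 1 of the 2 lists were gained. With equal numbers of the strongest peaks they were 9 gained and 0 lost, where all merged regions gave 44.9% gained. In epithelium the same equal numbers gave 2 gained and 0 lost at Gata2, the opposite direction, where all merged regions gave 45.3% gained. The P0.5 lists are about as long as each other and shorter than the E14.5 lists, so numbers of calls fell in the genome as a whole.

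**Figure D5:**
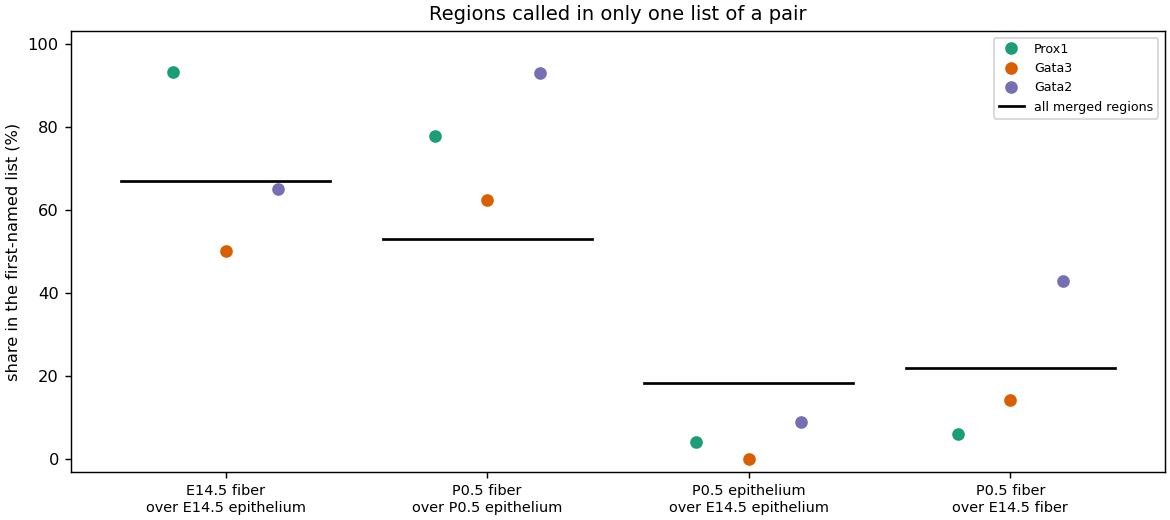
Among regions called in only 1 list of a pair, the percentage called in the first-named list, for Prox1, Gata3 and Gata2, as points without error bars. Black lines give the same over all merged regions. Prox1 stands at 93.3% against 67.0% for E14.5 fiber over epithelium, and Gata2 at 92.9% against 53.0% for P0.5 fiber over epithelium.

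Paralogs of the 3 genes were set beside them. Of Prox2, Gata1, Gata4, Gata5 and Gata6, 4 had a promoter peak in each E14.5 list and 3 in each P0.5 list, and Gata1, the red blood cell member, had none in any. The highest of them was Gata6 in E14.5 epithelium at a percent rank of 13.5 and Gata5 in E14.5 fiber at 13.6. Gata3 thus ranked ahead of every measured paralog in all 4 lists, and Gata2 ahead of all in E14.5 fiber and P0.5 fiber but behind Gata6 in E14.5 epithelium (14.8 against 13.5) and behind Gata5 in P0.5 epithelium (27.9 against 21.5).

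Other fiber regulators had better-ranked promoter peaks than Prox1 in fiber. Maf, a leucine zipper factor that drives crystallin genes, stood at 1.24 in E14.5 fiber and 6.31 in P0.5 fiber, Sox1 at 1.6 and 1.87, and the heat shock factor Hsf4 at 5.76 and 12.6, against 10.1 and 21.4 for Prox1. All 3 had lower percent ranks in fiber than in epithelium at both ages (Maf 4.52 and 12.8, Sox1 2.41 and 11.3, Hsf4 27.7 and 47.1 in E14.5 and P0.5 epithelium), whereas Prox1 had higher ones. The gap of Prox1 at E14.5 was small in the full lists and wider with equal numbers of the strongest peaks. The E14.5 fiber list is longer than that of E14.5 epithelium, so the same rank is a lower percentage in it. Of all genes with a promoter peak in every list, 48.3% had lower percent ranks in fiber at both ages and 17.3% higher ones at both. Of the epithelium factors, Foxe3 stood at 4.26, 7.48, 7.95 and 9.32 in the 4 lists, Pax6 at 3.73, 0.479, 6.64 and 6.31, and Tfap2a at 6.95, 7.1, 23.6 and 14.0.

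The 6 genes tied to Prox1 or Gata3 by earlier work (the receptors Fgfr3 and Fgfrl1, the klotho-like Lctl, the crystallin Crybb1 and the cell cycle inhibitors Cdkn1b and Cdkn1c) had a promoter peak in every list. Crybb1 had percent ranks of 0.494 in E14.5 fiber and 3.82 in P0.5 fiber against 10.4 and 75.7 in epithelium. Fgfr3 had 4.32 and 5.11 in fiber against 9.01 and 18.0 in epithelium, and Cdkn1c 3.63 and 3.45 against 4.95 and 18.0. Fgfrl1 had 0.703 and 3.15 in fiber against 2.76 and 3.76. Lctl was weak, at 20.7 in E14.5 fiber and 91.3 in P0.5 fiber against 50.8 and 66.3. Cdkn1b differed little in percent rank of the full lists at E14.5, with 3.74 in fiber and 3.64 in epithelium, and stood at 15.7 and 7.24 at P0.5. The 5 genes other than Cdkn1b were thus better ranked in fiber than in epithelium at E14.5, and 4 of them at P0.5, Lctl being the exception. Of the 12727 genes with a promoter peak in every list, 73.6% were better ranked in fiber at E14.5 and 57.3% at P0.5, so these counts are near the share of all genes. At E14.5 the directions depend on the lengths of the lists too, since the fiber list is the longer.

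Likeness was measured over 8 values, the promoter rank and window cover in each list, as a distance on scaled logarithms. The genes most like Prox1 were Rab20 (distance 0.274), H1f3 (0.355) and Serpinh1 (0.395), where the median gene lay at 2.48. Gata3 was most like Myh9 (0.499), Dcaf8 (0.519) and Rpl27a (0.542), with a median of 3.44, and Gata2 most like Tmem179 (0.308), Hid1 (0.322) and Gm1673 (0.353), with a median of 2.31. Prox1 and Gata2 lay 1.02 apart, and Gata3 lay 2.97 from Prox1 and 3.06 from Gata2. The 8 values come from the same lists and share peaks, so the distances are descriptive.

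Short motifs were searched on both strands in the 300 bases around the best summit of every region. The Gata motif, the letters GATA after an A or T and before an A or G, was in 23 of 66 Prox1 regions (34.8%), 12 of 33 Gata3 regions (36.4%) and 7 of 39 Gata2 regions (17.9%), against 30.7% of all merged regions. The Maf half-site TGCTGA was in 25.8%, 15.2% and 20.5% against 30.2%, and the Sox letters ACAATG or ACAAAG in 33.3%, 30.3% and 28.2% against 33.9%. The Tead letters GGAATG were in 6 Prox1 regions (9.09%), 10 Gata3 regions (30.3%) and 6 Gata2 regions (15.4%), against 18.7%. The AP-1 letters TGANTCA were in 10.6%, 9.09% and 5.13% against 9.29%, the Rbpj letters GTGGGAA in 10.6%, 9.09% and 12.8% against 7.44%. The Pax paired letters TCANGCNTG were in 1, 3 and 2 regions (4.92% of all), the Ets letters CCGGAAG in 1, 2 and 0 (3.14%), and the NF1 motif, TTGGC and GCCAA 5 bases apart, in 0 (0.0486%). Over all 3 loci, 30.4% of regions held a Gata motif, close to the share in the genome. The median GC content of the windows was 48.0% at Prox1, 52.3% at Gata3 and 58.3% at Gata2, against 52.3%, and its part in these shares was not tested. In the 250 bases before the start, 16.1% of all 32851 RefSeq promoters held the Maf half-site seen at Gata3. A match of letters is not evidence of binding.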

How the data were processed

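ATAC-seq was run on 8 lens samples, 2 in each of 4 groups. Per the labels and the study's methods, the authors trimmed reads with Trim Galore 0.4.1, mapped them to mm10 with Bowtie2 2.3.3.1, removed mitochondrial and duplicated reads with SAMtools 1.2 and Picard 2.1.1, and called peaks with MACS2 2.1 on fragments at a q value of 0.05. The deposited lists are named as pooled over the samples of a group. In them the authors gave each peak a fold enrichment (a ratio of fragments at the summit to background) and the −log10 p and −log10 q of the summit, with no values per sample and no control library named. 0 columns were left unassigned.

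In each list 100.0% of fold enrichments lay within 0.01 of a whole multiple of one step. With MACS2's ratio of fragments plus 1 to background plus 1, this gives whole stacked fragments over a constant background of 1.61 fragments in E14.5 epithelium, 2.37 in E14.5 fiber, 1.36 in P0.5 epithelium and 1.16 in the P0.5 fiber list. A Poisson p from these numbers differed from the deposited −log10 p by at most 0.000156. Blacklisted regions of the genome were not removed here.

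Peaks were merged with bedtools 2.31.1 at 10 bp and read with pandas 2.3.3. Intervals used scipy 1.17.1. Genes and sequences are from RefSeq on GRCm38.p6, whose chromosome lengths hold all peaks on the 21 chromosomes. All 3 genes matched a RefSeq promoter entry. A promoter is 2 kb on either side of a curated start site, and an overlap of 1 bp counted. Distances are from the first curated start site to the summit of the best-ranked peak of a region. The merging, ranking and placing steps were tested on simulated data. No difference between groups was tested, since each group has 1 pooled list, and the Wilson intervals of fragment ratios are given as descriptions of counting error.

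The members and gene lists were chosen with earlier results of these data known. Genes and regions were named by rule: the members, their paralogs, lens factors, tied genes and cell type markers, the 3 most alike genes of each member, the promoter regions and the 5 other regions with the best rank. Genes covered more than Prox1, the Prox1 region at 9.98 kb, the E14.5 fiber peak of 5053 bases and the Gata3 peak at 24.9 kb were named after their values were seen, as were the reading of stacked fragments, the ratios to the start region, the shares of regions in 1 list, the comparison with genes at least as long, the gene bodies from curated transcripts, the promoter ranks among genes with a promoter peak and the shares of all regions under the filters on peaks. Alternatives were a q value under 0.001, equal numbers of the strongest peaks, other merge distances, windows, promoter widths and start sites, summits in place of overlap, and ranking by −log10 p.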

Additional observations from a re-analysis of the deposited data

Results flagged for a closer look

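Some differences between fiber and epithelium pointed in opposite directions at the 2 ages, with 1 pooled list for each group, and the change of direction was not tested. The percentage of the Prox1 window covered by peaks was 17.9 percentage points higher in fiber than in epithelium at E14.5. In newborn lenses the difference of fiber minus epithelium was -1.1. At Gata3 the same differences were 2.8 and -0.51. Of all 21000 genes, 8795 (41.9%) had more cover in fiber at E14.5 and less at P0.5, so this direction was common. The percent rank of the best Gata3 promoter peak, where a low value is strong, differed by 0.472 (fiber minus epithelium) at E14.5 and by -1.78 in the newborn lists. Of 12727 genes with a promoter peak in every list, 1150 (9.04%) changed in that direction, from the weaker peak in E14.5 fiber to the stronger in P0.5 fiber. With equal numbers of the strongest peaks the Gata3 differences kept their directions, and that at E14.5 was larger, so their sizes depend on the filter.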

How the results depend on the processing

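No paired analysis was possible because the lists were called on pooled samples, and for the same reason no sample could be left out. Each of the 3 genes had a promoter peak in 4 lists with a q value under 0.001, equal numbers of peaks, summits in place of overlap, promoters of 1 kb and predicted start sites, and ranking by −log10 p gave the same ranks as fold enrichment. The last 2 outcomes were fixed in advance. Predicted start sites can only add promoter peaks, and p and fold enrichment come from the same fragments over one background. Of 120 values that answer a comparison, 100 stayed within the Wilson interval of a share or within 1.5 times of a count. This rule is loose, since the intervals treat regions as independent and are wide where few regions are counted. The 100 are therefore no measure of stability. Of the percent ranks and covers, 34 values moved by more than 1.5 times and 170 did not. With a q value under 0.001, Gata2 kept 22 regions, and the share of regions in one list that was in the first-named list became 100% of 21 at Prox1 for E14.5 fiber over epithelium (63.2% of all merged regions), 33.3%, 25.0% and 50% at Prox1, Gata3 and Gata2 for P0.5 fiber over P0.5 epithelium, and 0.0% at each gene for P0.5 fiber over E14.5 fiber. With equal numbers of the strongest peaks, 43, 17 and 20 regions were left at Prox1, Gata3 and Gata2. At Gata2 the shares then became 100% of 4 regions for E14.5 fiber over epithelium (54.5% of all merged regions) and 100% of 9 for P0.5 fiber over E14.5 fiber (44.9%). That for P0.5 over E14.5 epithelium reversed, from 9.09% to 100% of 2. With windows of 20 kb the shares became 0.0% at Prox1 for P0.5 over E14.5 in epithelium and in fiber, and 100% for P0.5 fiber over epithelium and 0.0% for P0.5 over E14.5 epithelium at Gata2, which had 18 regions, and 61 with 100 kb. All merged regions gave 18.4% for P0.5 over E14.5 epithelium, 21.9% for P0.5 over E14.5 fiber and 53.0% for P0.5 fiber over epithelium. The shares at Gata2 rest on few of its 18 regions. Except for the smaller windows and shorter lists, which hold fewer regions by construction, the cause was not tested. Percent ranks rise when a list is shortened, since the same rank is divided by fewer peaks. In P0.5 fiber, ratios at 9 fragments leave intervals several-fold wide.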
